A study of Mus musculus with 36 samples.

Results

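The 1572 regions described here were open chromatin in mesenchymal stem cells (MSCs) from both bone marrow sites of the mouse and had no peak of any strength in MSCs from fat or lung. Open chromatin was measured by ATAC-seq, in which the Tn5 transposase cuts and tags accessible DNA, and each tissue had 1 list of peaks called on pooled reads. Peak lines with the same start and end were merged into regions. A region of the femoral marrow list was kept when its −log10 q exceeded 7, when at least 1 bp of it was covered by a vertebral marrow region above 7, and when it touched no line of the adipose or lung list. These marrow-only regions, called members from here on, were 2.77% of the 56769 femoral regions above 7. The members were thus chosen by the q values and positions of the peak lists, so their openness in marrow and their absence elsewhere are a description and carry no test.

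All cells were from C57BL6/J mice aged 8 weeks and were grown in MesenCult medium for at most 3 passages, as fBM-MSCs (femoral marrow), vBM-MSCs (vertebral marrow), A-MSCs (adipose tissue) and P-MSCs (lung). Bones were crushed to release the marrow cells while fat and lung were digested with collagenase, so marrow origin and isolation method cannot be told apart. Each peak list stands for 6 ATAC-seq samples from 3 replicates and shows no spread between replicates. RNA-seq by Smart-seq2, which does not keep the strand, was analysed in 3 fBM-MSC, 2 vBM-MSC, 3 A-MSC and 3 P-MSC libraries, with 19569650 to 40517739 expected counts per library. For vBM-MSC RNA, replicate 3 was not analysed here. The study drew the 4 tissues from the same mice but does not tie libraries to mice, so p-values measure the spread between these libraries, which were treated as independent.

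The labelled cell type was checked on RNA. Itgb1, Cd44, Ly6a and Vcam1, which encode surface proteins used to define mouse MSCs, were present in every library, and Vcam1, the lowest of them, was at 29.3 TPM or more. The blood cell marker Ptprc reached at most 0.35 TPM. The 14 endothelial markers summed to 4.65 to 11.1 TPM in marrow, 9.92 to 69.5 in the A-MSCs and 8.46 to 16.8 in the P-MSCs, and the highest single value was 49.5 TPM of Emcn in A-MSC replicate 1. The 13 epithelial and mesothelial markers summed to 2.75 to 12.3 TPM in marrow, 83.9 to 99.5 in the A-MSCs and 56.7 to 66.5 in the P-MSCs. The 11 adipocyte markers summed to 40.4 to 101.9, 66.7 to 194.6 and 18.9 to 22.5 TPM in the same order. The 15 neutrophil and erythroid markers summed to at most 15.9 TPM, mainly through S100a8. The part of other cells in the differences described here was not tested. Cd34, which the definition excludes, was at 79.2 and 72.7 TPM in fBM-MSC replicates 1 and 2.

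Distal open chromatin that differs between cell types often holds enhancers, where transcription factors bind short DNA words and act on a promoter that can lie far away. RUNX proteins bind TGTGGT-like words with their partner Cbfb, and Runx2 is required for osteoblasts to form. AP-1 dimers of Fos and Jun proteins bind TGAGTCA and mark open chromatin in many cultured mesenchymal cells. NFI proteins bind TTGGCA-containing words, and the posterior HOX proteins, which set position along limb and trunk, prefer TTTATGG-like words. Marrow MSCs are a known source of osteoblasts and of the stromal signals of the blood stem cell niche.

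Windows that reach 100 bases to each side of the femoral summit are printed from the RefSeq reference GRCm38, plus strand, 5′ to 3′. Capitals mark every match to RUNX (TGTGGT or TGCGGT), NFI (TTGGCA), posterior HOX (TTTATGG or TTTATTG) and AP-1 (TGAGTCA or TGACTCA) on either strand, so a RUNX word on the minus strand reads ACCACA or ACCGCA. Each line opens with the gene whose transcription start was nearest. The 4 strongest members, ranked by the smaller of their 2 marrow −log10 q values, show what the set looks like at its best.
Lrig3, chr10:126013706-126013906: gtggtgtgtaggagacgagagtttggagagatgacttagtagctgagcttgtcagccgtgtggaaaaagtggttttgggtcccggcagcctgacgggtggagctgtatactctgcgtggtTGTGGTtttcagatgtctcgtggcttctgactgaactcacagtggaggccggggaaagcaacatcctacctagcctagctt
Gm4710, chr17:75804366-75804566: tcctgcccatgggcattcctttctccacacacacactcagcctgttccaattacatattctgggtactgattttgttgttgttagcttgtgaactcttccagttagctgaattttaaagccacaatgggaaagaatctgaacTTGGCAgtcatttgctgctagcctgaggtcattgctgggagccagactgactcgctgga
Sdr16c5, chr4:3985608-3985808: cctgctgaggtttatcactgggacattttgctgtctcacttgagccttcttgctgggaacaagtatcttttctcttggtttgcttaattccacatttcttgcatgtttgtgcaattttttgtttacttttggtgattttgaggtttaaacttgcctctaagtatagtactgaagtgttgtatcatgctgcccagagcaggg
Atf3, chr1:191230512-191230712: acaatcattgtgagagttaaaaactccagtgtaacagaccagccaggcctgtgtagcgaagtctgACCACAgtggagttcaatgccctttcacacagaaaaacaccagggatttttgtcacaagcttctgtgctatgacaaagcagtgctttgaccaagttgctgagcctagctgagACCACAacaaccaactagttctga

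The 2 strongest members within 1 kb of a transcription start show the promoter class, which was rare in the set. The Atp6v0d2 window covers the start of the gene and is the only one printed that holds both a RUNX and an AP-1 word.
Atp6v0d2, chr4:19922510-19922710: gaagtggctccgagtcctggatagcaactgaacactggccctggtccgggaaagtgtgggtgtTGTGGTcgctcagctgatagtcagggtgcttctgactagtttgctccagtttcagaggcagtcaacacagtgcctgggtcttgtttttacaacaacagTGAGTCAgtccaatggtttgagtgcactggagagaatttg
Znrf3, chr11:5381366-5381566: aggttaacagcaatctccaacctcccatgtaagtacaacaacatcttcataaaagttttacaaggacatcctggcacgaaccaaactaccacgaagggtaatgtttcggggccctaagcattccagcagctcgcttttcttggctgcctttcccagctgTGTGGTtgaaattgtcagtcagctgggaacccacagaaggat

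The next lines give the strongest member at Efnb2, the tested gene with most members, and at 3 of the 15 tested genes that tied behind it with 3 members each, taken in order of the share of their fBM-MSC regions that were members.
Efnb2, chr8:8593826-8594026: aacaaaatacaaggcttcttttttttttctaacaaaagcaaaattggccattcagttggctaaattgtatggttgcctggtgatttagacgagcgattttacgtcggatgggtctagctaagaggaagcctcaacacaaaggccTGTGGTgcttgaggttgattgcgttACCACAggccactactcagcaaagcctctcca
Ankrd46, chr15:36488723-36488923: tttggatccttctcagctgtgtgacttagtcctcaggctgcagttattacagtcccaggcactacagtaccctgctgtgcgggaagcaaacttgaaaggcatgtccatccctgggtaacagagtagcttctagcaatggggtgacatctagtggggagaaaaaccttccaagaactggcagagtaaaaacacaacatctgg
Mad2l1, chr6:66361179-66361379: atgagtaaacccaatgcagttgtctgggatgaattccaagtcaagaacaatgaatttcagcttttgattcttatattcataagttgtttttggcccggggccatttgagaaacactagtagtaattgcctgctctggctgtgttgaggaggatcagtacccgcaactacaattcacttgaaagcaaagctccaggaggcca
Fam43a, chr16:30737058-30737258: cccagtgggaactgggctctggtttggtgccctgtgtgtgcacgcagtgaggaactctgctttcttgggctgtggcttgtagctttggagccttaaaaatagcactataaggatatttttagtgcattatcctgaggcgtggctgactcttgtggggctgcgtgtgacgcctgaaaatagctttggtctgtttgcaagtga

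Finally, 3 members beside osteoblast genes are shown because their genes had large RNA differences. They were chosen after their values were seen, so they do not represent the set.
Dlx5, chr6:6882029-6882229: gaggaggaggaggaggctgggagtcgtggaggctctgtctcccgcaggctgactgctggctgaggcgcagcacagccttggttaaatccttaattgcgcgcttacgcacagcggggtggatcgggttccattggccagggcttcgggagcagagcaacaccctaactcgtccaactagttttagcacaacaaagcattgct
Sp7, chr15:102362756-102362956: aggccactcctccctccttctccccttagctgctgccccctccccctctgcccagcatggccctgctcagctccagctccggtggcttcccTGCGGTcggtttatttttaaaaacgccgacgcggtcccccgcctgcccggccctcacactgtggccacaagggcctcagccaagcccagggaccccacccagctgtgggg
Alpl, chr4:137748860-137749060: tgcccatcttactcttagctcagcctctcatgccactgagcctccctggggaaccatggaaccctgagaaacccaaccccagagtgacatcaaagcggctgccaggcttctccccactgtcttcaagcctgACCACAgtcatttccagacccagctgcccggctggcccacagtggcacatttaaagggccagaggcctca

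Of these 13 windows, 7 held a RUNX word, those of Atf3 and Efnb2 held 2, and 5 held no word of the 4 kinds. The Gm4710 window held an NFI word alone.

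Most members were weak peaks in both marrow lists. The median fold enrichment at the summit was 7.36 in the fBM-MSC list (interquartile range 6.25 to 9.56, highest 33.8) and 6.99 in the vBM-MSC list (6.25 to 9.20, highest 30.5). The median −log10 q was 12.05 and 11.01, and 839 members (53.4%) had a smaller marrow value under 10. At the threshold, the weakest members stood at 7.14 in the fBM-MSC list and 7.13 in the vBM-MSC list, and the strongest regions excluded by it stood at 6.25 and 6.23. Only 237 members exceeded 15 in both lists and 24 exceeded 30. The 4 lists had the same lowest listed fold, 2.94, and the same step between folds, 0.368, so their listing limits were alike.

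Neither marrow site had the higher fold throughout. Fold enrichment was higher in fBM-MSCs for 798 members and in vBM-MSCs for 774. A difference of over 2-fold was found for 99 members in favour of fBM-MSCs and for 65 in favour of vBM-MSCs. The summits lay within 50 bp of each other in 958 members (60.9%), with a median distance of 39 bp. The members were 203 to 1718 bp wide (median 437 bp), covered 733291 bases in all, and 1480 of them had 1 summit.

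**Figure D1:**
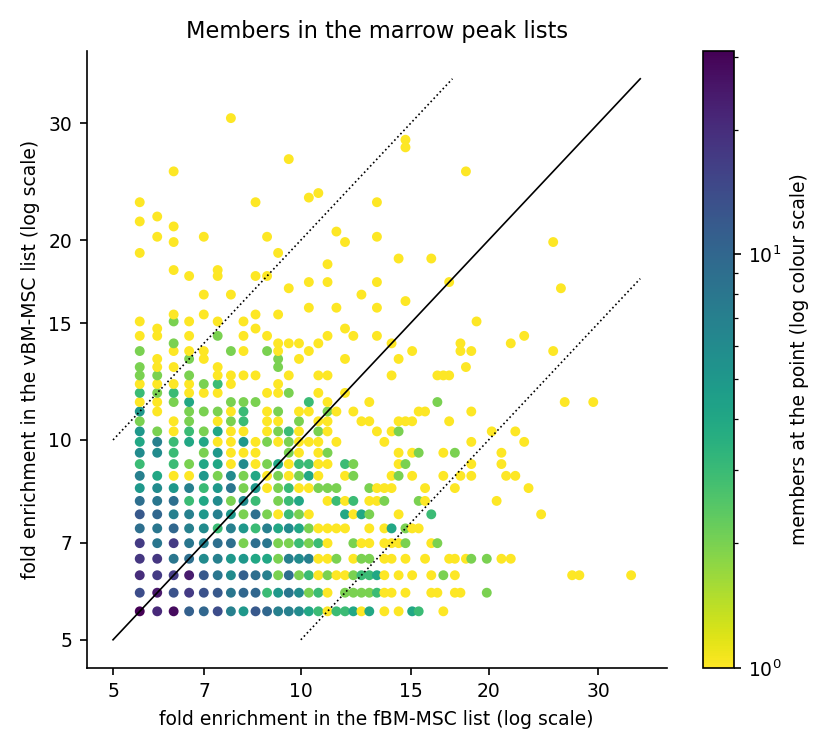
Fold enrichment of each of the 1572 members in the fBM-MSC list (x axis, log scale) and the vBM-MSC list (y axis, log scale), coloured by the number of members at the point, with the solid line at equality and the dotted lines at a 2-fold difference. The cloud is densest at its lower corner, near a fold of 5.52 in both lists, and spreads to both sides of the solid line, with 99 members past the lower dotted line and 65 past the upper.

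Members were distal. A summit within 1 kb of a transcription start was found in 32 members (2.04%), against 20.9% of all fBM-MSC regions above 7 and 35.5% of the 29623 regions open in all 4 tissues. Another 26 members (1.65%) lay in exons, 700 (44.5%) in introns and 814 (51.8%) between genes, where 39.5% of all fBM-MSC regions lay. The median distance to the nearest start was 47.8 kb for members and 20.4 kb for all fBM-MSC regions, and 31.2% and 17.4% were more than 100 kb away. Other classes that were not shared by all tissues were distal too. Promoters made up 1.73% of the 5032 regions open in fBM-MSCs alone and 2.27% of the 1942 regions open in A-MSCs and P-MSCs but in neither marrow list.

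The members had fewer CpG dinucleotides than fBM-MSC regions as a whole, as distal regions do. In the same windows, the mean number of CpGs was 2.40 in members, 5.91 in all fBM-MSC regions and 3.01 in fBM-MSC regions away from promoters. Median GC content was 46.3%, 49.8% and 47.8% in the same order. Repeats filled most of the window in 2.54% of members and 2.82% of all fBM-MSC regions. Members were spread over the autosomes, from 2.17% of the fBM-MSC regions of chromosome 11 to 3.45% of those of chromosome 10.

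The strongest member lay in an intron of Lrig3, which encodes a leucine-rich repeat membrane protein, at chr10:126013505-126014130. Its fold was 25.4 in fBM-MSCs and 19.9 in vBM-MSCs, 47.6 kb from the start of the gene. The second, 56.6 kb upstream of Gm4710, had folds of 18.4 and 25.4, and its summits in the 2 lists were 6 bp apart. The third lay 34.0 kb from the start of the retinol dehydrogenase gene Sdr16c5, with folds of 17.3 in both lists and the same summit base. The fourth lay 47.3 kb upstream of Atf3, which encodes a stress-induced transcription factor, with folds of 26.1 and 16.9. The next 8 in rank were nearest to Atp6v0e, Aqp1, Cfap45, Nudt12, Jag1, Nr5a2, C030034L19Rik and D230030E09Rik, and those of Nudt12, Jag1 and Nr5a2 were 546 kb, 492 kb and 486 kb from the start.

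Of the 12 genes beside these members, 7 passed the filter on low counts, 3 of which rose and 0 of which fell in marrow MSCs, where 24.9% and 22.4% of all tested genes did. Lrig3 rose in marrow MSCs, with 2.53 to 6.04 TPM in the 5 marrow libraries and 1.53 to 2.22 in the 6 others, and no overlap between them (log2 fold change 1.11 ± 0.22 SE, edgeR adjusted p = 0.00173). The water channel gene Aqp1 rose by 1.56 ± 0.17 on the log2 scale (adjusted p = 2.32e-05), but its P-MSC libraries at 20.9 to 28.3 TPM overlapped the vBM-MSC libraries at 22.9 and 24.7. Atp6v0e, which encodes a subunit of the vacuolar proton pump, rose by 0.48 ± 0.09 (adjusted p = 0.00127). The values of Atf3 (0.83, adjusted p = 0.333), Cfap45 (0.92, 0.390), Nudt12 (0.25, 0.580) and the Notch ligand gene Jag1 (−0.53, 0.0541) did not pass. Gm4710, Sdr16c5, Nr5a2 and D230030E09Rik were listed at 0 in all 11 libraries.

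Some members lay close together. With gaps of at most 50 kb, 227 members (14.4%) fell into 109 groups of 2 or more, and 9 groups held 3. The tightest was in an intron of Lrch1, where 3 members lay within 11.02 kb at chr14:74867057-74878075 and were all of the fBM-MSC regions in that span, although the first 2 of them met the same vBM-MSC region. A group of 3 beside Ppp1r17, within 46.1 kb at chr6:56130774-56176860, also held no other fBM-MSC region. The group at Trpm1 spanned 44.3 kb and held 3 of 4 fBM-MSC regions, and that beside Plxna2 spanned 31.6 kb and held 3 of 5.

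RUNX, NFI and posterior HOX words were more frequent in members than in fBM-MSC regions as a whole, and AP-1 words were less frequent. A RUNX word was found within 100 bases of the summit in 617 members, 39.2% (exact Clopper-Pearson 95% interval 36.8 to 41.7%), against 26.9% of all fBM-MSC regions. An NFI word was found in 330 members, 21.0% (19 to 23%), against 13.8%, and a posterior HOX word in 131, 8.33% (7.01 to 9.81%), against 5.13%. An AP-1 word was found in 297 members, 18.9% (17.0 to 20.9%), against 30.7%. These intervals cover counting error only, since 1 pooled list gives no spread between replicates, and no test was made over regions. A match is a word in the DNA and does not show that a protein was bound.

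The order of the classes differed from word to word. RUNX words were as frequent in regions open in fBM-MSCs alone, at 41.0%, but stood at 21.7% in the 2325 regions open in vBM-MSCs alone, at 19.2% in regions open in A-MSCs and P-MSCs alone, and at 22.0% in regions open in all 4 tissues. NFI words ran the other way within marrow, with 20% in the vBM-MSC-only and 15.5% in the fBM-MSC-only class. Posterior HOX words had similar shares in the 3 marrow classes, 8.33% in members, 7.67% in fBM-MSC-only and 8.09% in vBM-MSC-only regions, and 4.74% in the A-MSC and P-MSC class. The AP-1 share of members lay between that of fBM-MSC-only regions, 33.8%, and that of vBM-MSC-only regions, 7.83%. GATA words (an A or a T followed by GATAA or GATAG) were in 17.0% of members and in 46.1% of the regions open in A-MSCs and P-MSCs alone, and TEAD words (GGAATG) in 19.1% and 27.5%.

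**Figure D2:**
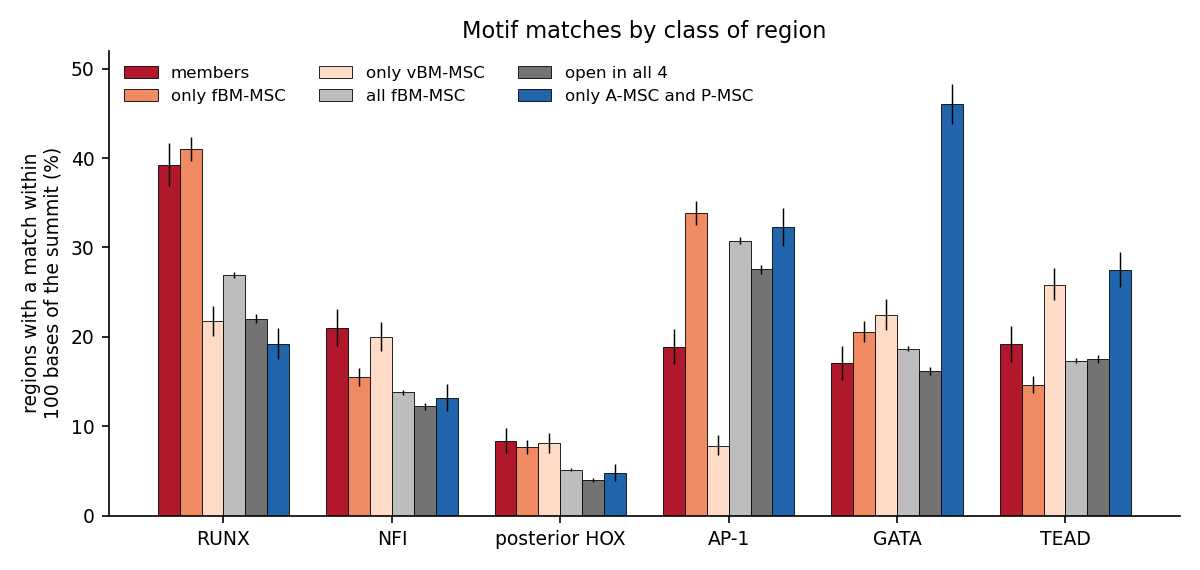
Share of regions with a match within 100 bases of the summit (y axis, %) for 6 words, in members, regions open in fBM-MSCs or vBM-MSCs alone, all fBM-MSC regions, regions open in all 4 tissues, and regions open in A-MSCs and P-MSCs alone, with exact 95% intervals that cover counting error only. RUNX stands at 39.2% in members and 41.0% in the fBM-MSC-only class and at 26.9% or less in the others, while GATA stands at 46.1% in the A-MSC and P-MSC class.

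GC content and distance to promoters were equalised in part. Away from promoters and within the members' interquartile range of GC content, 42.3 to 50.7%, RUNX words were in 42.2% of 825 members and 31.7% of 22508 fBM-MSC regions. In the same comparison the shares were 20.7% and 16.3% for NFI, 8.36% and 6.25% for posterior HOX, and 19.6% and 40.9% for AP-1. SP/KLF words (GGGCGG), a feature of CpG-rich promoters, were in 3.37% of members and 17.0% of all fBM-MSC regions, 6.24% of those away from promoters, and at equal GC content in 2.18% of members and 2.63% of fBM-MSC regions. Members centred on the vBM-MSC summit had RUNX words in 37.4% and AP-1 words in 18.3%, against 22.4% and 22.7% of all vBM-MSC regions, so the AP-1 gap was narrower on that side. This comparison of equal GC content was added after the data were seen.

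The words were spread differently around the summit. In bins of 10 bases, the members had 2.99 RUNX matches per 100 regions at the summit, 3.63 at 10 bases past it, and 0.95 and 1.46 at 140 bases before and after, while all fBM-MSC regions had 1.86 at the summit. AP-1 matches of all fBM-MSC regions were densest near the summit, with 2.41 at 10 bases before it and 2.34 at it, against 0.45 at 140 bases before. In members they numbered 1.65 and 1.08 at the same places and 0.19 at 140 bases before, on 3 to 26 matches per bin. NFI matches of members were at 1.34 at the summit and 0.64 at 140 bases before, and posterior HOX matches at 0.32 and 0.38. At least 2 RUNX words were found in 145 members (9.22%), against 4.40% of all fBM-MSC regions. RUNX and AP-1 words seldom met, since an AP-1 word was in 11.5% of the members with a RUNX word and in 23.7% of those without, against 29.2% and 31.3% in all fBM-MSC regions. Matches of both kinds shared a base in 2 members, RUNX and HOX matches in 1, NFI and HOX matches in 2, and the other pairs of the 4 words in 0. In all, 891 members (56.7%) held a RUNX, NFI or posterior HOX word, against 40.0% of all fBM-MSC regions.

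**Figure D3:**
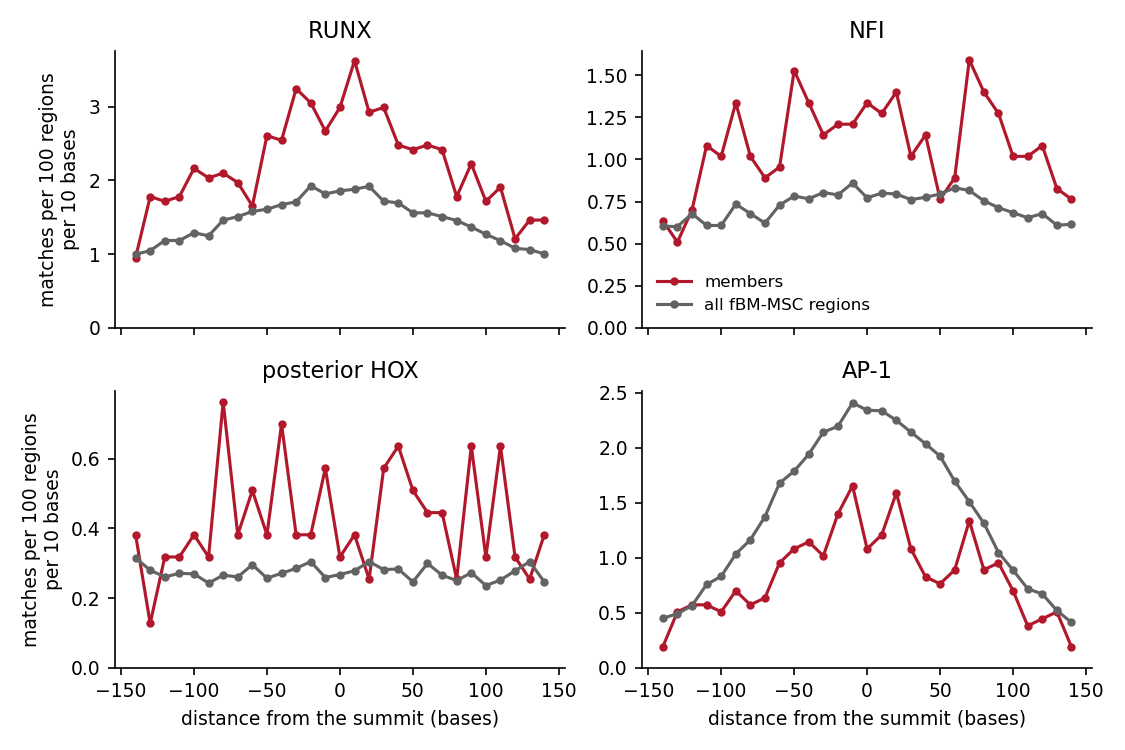
Matches per 100 regions per 10 bases (y axes, which differ between panels) against distance from the fBM-MSC summit in bases (x axis), for RUNX, NFI, posterior HOX and AP-1 words in members (red) and all fBM-MSC regions (grey). The RUNX line of members lies above the grey line around the summit, 2.99 against 1.86 at 0, and the AP-1 line lies under it, 1.08 against 2.34.

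The members that were stronger in one marrow site had different shares of RUNX and AP-1 words. Of the 99 with an over 2-fold higher fold in fBM-MSCs, 48.5% held a RUNX and 34.3% an AP-1 word, and of the 65 with an over 2-fold higher fold in vBM-MSCs, 29.2% and 6.15%. NFI words were in 19.2% and 24.6% and posterior HOX words in 10.1% and 12.3%, in the same order. No test was made of these shares.

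The next question was whether the genes beside members differed in RNA between marrow and the other MSCs, a readout the rule did not use. Each member was linked to the nearest transcription start, which gave 1342 genes, of which 803 passed the filter of 1 CPM in at least 2 libraries and 539 did not. Of the 803, 315 (39.2%) were higher in marrow MSCs and 122 (15.2%) lower at an edgeR adjusted p under 0.05. The background over 12063 tested genes was 24.9% higher and 22.4% lower. The median log2 fold change was 0.34 at linked genes and 0.03 over all. In bulk RNA, fewer cells of a type and less RNA per cell cannot be told apart. Among the 688 linked genes with 1 CPM in at least 2 marrow and at least 2 other libraries, 36.8% were higher, against 23.8% of all such genes, a restriction added after the data were seen.

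More of the genes with several members were higher than of those with 1, and no test was made of that difference. With 1 member, 258 of 689 genes were higher (37.4%) and 107 lower. With 2 members, 49 of 98 were higher (50%) and 12 lower, and with 3 or more, 8 of 16 were higher (50%) and 3 lower. Among genes nearest to 10 or more fBM-MSC regions, 43.6% of the 275 with a member and 33.2% of the 515 without were higher. The share of the 515 was also above the 24.9% of all tested genes. These 515 were not screened for regions open in fBM-MSCs alone. Genes within 20 kb of a member were higher in 43.4%, those more than 100 kb away in 37.9%, and the 19 within 1 kb in 84.2%, with no test of these differences. Genes nearest to regions open in fBM-MSCs alone were higher in 31.8%, to regions open in vBM-MSCs alone in 32.1%, and to regions open in A-MSCs and P-MSCs alone in 21.5%.

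**Figure D4:**
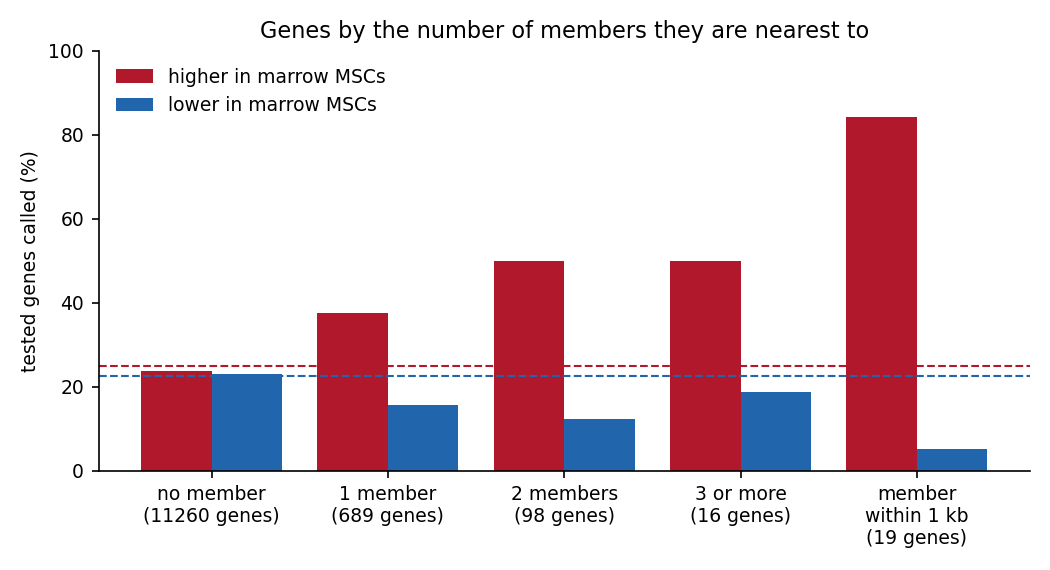
Share of tested genes called higher (red) or lower (blue) in marrow MSCs at an edgeR adjusted p under 0.05 (y axis, %), by the number of members they are nearest to and for genes with a member within 1 kb of a start, with dashed lines at the background of 24.9% higher and 22.4% lower. The red bars rise from 23.8% with no member to 50% with 2, and to 84.2% of the 19 genes with a member within 1 kb.

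In a stricter call, a gene had to be higher in each marrow tissue than in each other tissue. This held for 108 of the 803 linked genes (13.4%) against a background of 6.08%, and the opposite for 35 (4.36%) against 5.94%. The words in members were set against the call of the nearest gene. RUNX words were in 40.8% of the 380 members whose gene was higher, 37.1% of the 143 whose gene was lower and 40.9% of the 413 whose gene was not called. The posterior HOX share was 8.95% beside higher, 7.99% beside not called, 9.28% beside not tested and 3.50% beside lower genes, the last on 143 members.

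The 32 promoter members were closest to a readable gene. Of their genes, 19 were tested, and 16 of these were called higher and 1 lower in marrow MSCs, where 24.9% and 22.4% of all tested genes were. All but 1 of the 17 had no overlap between the marrow and other libraries, a share that was not taken over all tested genes. Since 7 of the 19 passed the filter through marrow libraries alone, the 12 with 1 CPM on both sides were counted apart, and 10 of them were higher. The other 13 genes, among them Ppargc1a, Hpn, Fgb and Cngb3, were not tested, and their highest marrow level was 4.90 TPM, for Hspb3.

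Genes of bone formation were among them. Dlx5, which encodes a homeodomain protein of osteoblasts and limb, had its member 61 bp upstream of the start, with folds of 13.98 in fBM-MSCs and 7.36 in vBM-MSCs. Its RNA was at 9.09, 17.8 and 44.3 TPM in the fBM-MSCs, 0.27 and 5.97 in the vBM-MSCs, 0 in the A-MSCs, and 0, 0.16 and 0 in the P-MSCs. Every marrow library was above every other, though vBM-MSC replicate 1 only by 0.27 against 0.16, and the log2 fold change was 9.12 ± 1.19 (adjusted p = 0.000196). Panx3, which encodes a channel protein of osteoblasts and chondrocytes, had its only fBM-MSC region as a member 114 bp upstream. Its RNA was at 7.93, 7.61 and 24.0 TPM in the fBM-MSCs, 0.26 and 1.27 in the vBM-MSCs and at most 0.16 elsewhere (5.85 ± 0.85, adjusted p = 0.000183). Clec11a, which encodes a secreted bone growth factor, was at 27.2, 31.5 and 58.3 TPM in the fBM-MSCs, 8.36 and 29.6 in the vBM-MSCs, 1.25 to 2.42 in the A-MSCs and 0.24 to 0.70 in the P-MSCs (4.96 ± 0.39, adjusted p = 2.19e-06).

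Atp6v0d2, which encodes a proton pump subunit best known from osteoclasts, had the strongest promoter member, with folds of 29.4 and 11.4. Its RNA was at 20.9, 23.0 and 15.04 TPM in the fBM-MSCs, 0.11 and 0.83 in the vBM-MSCs and 0 in all 6 other libraries. Against a floor of 3 counts over those 6 libraries, marrow was at least 1270-fold higher (adjusted p = 3.66e-05). The fBM-MSC and vBM-MSC libraries did not overlap either. The 28 macrophage and osteoclast markers summed to 52.9 to 81.5 TPM in the fBM-MSCs, 27.5 to 61.6 in the vBM-MSCs, 25.1 to 32.3 in the A-MSCs and 31.0 to 34.3 in the P-MSCs. The single markers went in both directions. Fcer1g was at 4.70 to 19.8 TPM in the fBM-MSCs, 0 and 8.21 in the vBM-MSCs and 0 elsewhere (adjusted p = 0.00275), Lyz2 at 19.8 to 38.6 in marrow and 1.76 to 12.8 elsewhere (adjusted p = 9.31e-06), and Trem2 at 0.59 to 6.88 in marrow and 0 to 2.73 elsewhere (adjusted p = 0.0111), each p for marrow against the other MSCs. Csf1r was lower in marrow, at 0.60 to 1.16 TPM against 2.21 to 6.56 (−2.24 ± 0.24, adjusted p = 1.75e-05), as was Mgl2, at 0 against up to 15.4 (adjusted p = 0.00411). Cd68 was at 12.3 to 18.5 TPM in the fBM-MSCs, 0.87 and 2.72 in the vBM-MSCs and 3.47 to 7.38 elsewhere. Of the other defining markers, Dcstamp and Aif1 were at 0 in every library and Adgre1 and Itgam at 0 in the marrow libraries, while Oscar reached 2.58, Acp5 1.66, Ocstamp 0.60 and Spi1 0.50 TPM in marrow. Their part in the Atp6v0d2 difference was not tested.

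Of the promoter genes, the smallest adjusted p was that of Edil3, which encodes an integrin-binding matrix protein. It was at 23.0, 30.0 and 27.8 TPM in the fBM-MSCs, 13.4 and 17.2 in the vBM-MSCs, 0, 0.11 and 0 in the A-MSCs and 0.45 to 0.49 in the P-MSCs (7.19 ± 0.35, adjusted p = 1.08e-07). It had a further member 255 kb upstream with folds of 9.20 and 13.98. S100b, which encodes a calcium-binding protein, also had 2 members, 19 bp past its start and 5.97 kb upstream, and was at 6.47 to 56.0 TPM in marrow and at most 0.66 elsewhere (6.0 ± 0.72, adjusted p = 4.41e-05). Tmem151a was at 40.0 to 54.5 TPM in marrow and 5.91 to 12.7 elsewhere (2.45 ± 0.16, adjusted p = 6.91e-07). Tmem179 (3.28), the Rac exchange factor gene Tiam2 (2.66) and Clip4 (2.66) also rose without overlap. Znrf3, which encodes a ubiquitin ligase that removes Wnt receptors, rose by 0.83 ± 0.17 (adjusted p = 0.0017), with 3.48 to 4.64 TPM in marrow and 1.45 to 2.99 elsewhere.

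Kcnab1, which encodes a potassium channel subunit, went the other way. It was at 4.17 to 12.8 TPM in marrow and 23.3 to 46.5 elsewhere, without overlap, and fell by 2.13 on the log2 scale (SE 0.26, adjusted p = 5.05e-05) although its promoter member was open in both marrow sites. Fbxo40 passed the test at 4.28 ± 1.48 (adjusted p = 0.0378) on 91 counts in marrow and 2 elsewhere, a ratio of 63.4 with a counting interval of 17.1 to 531, and its libraries overlapped. It no longer passed in 5 of the 11 fits that left out 1 library, among them the fit without vBM-MSC replicate 2 (2.71). Sox6, which encodes a cartilage transcription factor, stayed at or under 0.31 TPM in every library and did not pass (1.26, adjusted p = 0.346).

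**Figure D5:**
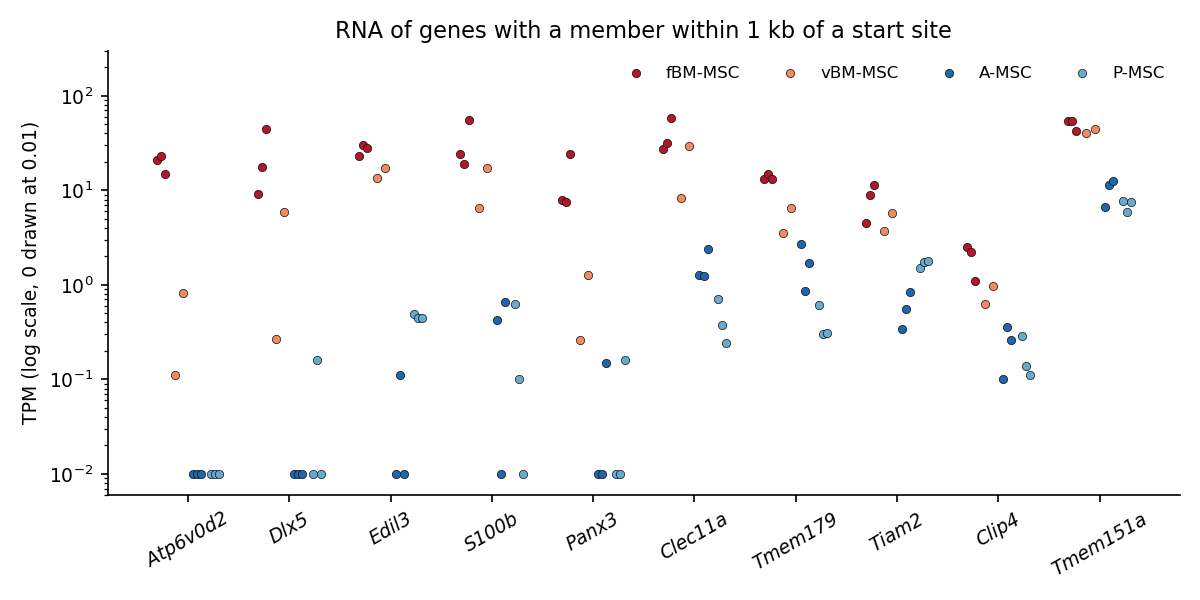
RNA level in TPM (y axis, log scale, with 0 drawn at 0.01) of 10 genes with a member within 1 kb of a start, 1 point per library, in fBM-MSCs (3), vBM-MSCs (2), A-MSCs (3) and P-MSCs (3). In each gene every marrow point lies above every A-MSC and P-MSC point, since the genes were chosen for a call without such overlap. For Atp6v0d2 the vBM-MSC points, 0.11 and 0.83, lie far under the fBM-MSC points, 15.04 to 23.0.

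Genes with many members did not share a direction. Efnb2, which encodes the ephrin-B2 ligand of Eph receptors, had the most, 6 of its 32 fBM-MSC regions, all intergenic and 67.3 to 1649 kb from its start. Its RNA was at 2.98, 2.59 and 2.35 TPM in the fBM-MSCs, 4.06 and 5.44 in the vBM-MSCs, 10.1, 10.5 and 8.90 in the A-MSCs and 9.34, 8.19 and 9.63 in the P-MSCs. All marrow libraries were lower than all others, and the gene fell by 1.42 on the log2 scale (SE 0.12, adjusted p = 2.61e-06). Mad2l1, a spindle checkpoint gene with 3 members of 5 regions, all at least 134 kb upstream, was at 11.3 to 20.7 TPM in marrow and 51.4 to 110 elsewhere and fell by 2.27 (SE 0.17, adjusted p = 1.23e-06). Ankrd46, with 3 of 4 regions as members, was at 38.9 to 57.3 TPM in marrow and 27.2 to 34.97 elsewhere and rose by 0.56 ± 0.10 (adjusted p = 0.000799).

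The other 13 of the 16 genes with most members, each with 3, went in both directions. Lmo7, which encodes a LIM domain protein, was at 1.96 to 6.75 TPM in marrow and 0.01 to 1.41 elsewhere (3.57 ± 0.43, adjusted p = 4.71e-05). Dclk1, a microtubule-associated kinase gene, was at 19.7 to 27.3 TPM in marrow and 9.74 to 12.4 elsewhere (1.04 ± 0.11, adjusted p = 2.09e-05). Plcb1 (2.18), Lrch1 (1.13), 2010111I01Rik (0.97), Fam43a (0.70) and Ndnl2 (0.45) also rose, and Samd5 fell by 1.46. Ndnl2 no longer passed in 9 of the 11 fits that left out 1 library. Shfm1 (0.09), Dok5 (0.18), Lrrn3 (−0.01), Epha7 (1.49, adjusted p = 0.056) and Tbc1d30 (4.82, adjusted p = 0.0509) did not pass.

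Osteoblast genes held the most members of any gene list by count, although 3 lists with fewer regions had a higher share. Of 40 such genes, 10 were nearest to 12 members, which was 5.63% of their 213 fBM-MSC regions against 2.77% in all. Of the 36 tested, 31 were higher and 0 lower in marrow MSCs (background 24.9 and 22.4%), with a median log2 fold change of 3.66 beside 0.03 for all genes. Of the 23 with 1 CPM in at least 2 marrow and 2 other libraries, 20 were higher and 0 lower, where 23.8% and 23.2% of all such genes were. Alpl, which encodes the alkaline phosphatase of mineralising bone, had a single fBM-MSC region, which was a member in its intron 17.5 kb from the start, with folds of 15.5 and 8.09. Its RNA was at 35.6, 27.6 and 173 TPM in the fBM-MSCs, 11.6 and 76.9 in the vBM-MSCs, 0, 0.54 and 0.42 in the A-MSCs and 0 in the P-MSCs (10.93 ± 1.15, adjusted p = 4.96e-05). Every marrow library was above every other, although marrow itself ran from 11.6 to 173 TPM.

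Transcription factors of osteoblasts were in this list. Sp7, which acts after Runx2 in osteoblast formation, had a member in its intron 3.48 kb from the start with folds of 8.09 and 10.3. Its RNA was at 10.1, 23.7 and 64.3 TPM in the fBM-MSCs, 2.62 and 9.71 in the vBM-MSCs and at most 0.16 elsewhere (9.85 ± 0.86, adjusted p = 1.54e-05). Runx2 had 1 member of 16 regions, in an intron 122 kb from the start, and was at 5.40, 7.89 and 12.5 TPM in the fBM-MSCs, 2.55 and 4.54 in the vBM-MSCs and 2.30 to 4.23 elsewhere. The fBM-MSC libraries were the high ones, the vBM-MSC libraries overlapped the others, and the mean difference was 0.84 ± 0.23 (adjusted p = 0.00941). Dlx3 (4.48, adjusted p = 0.000224) and Msx2 (1.37, adjusted p = 0.00077) rose with overlap between the groups.

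Matrix and adhesion genes completed the list. Dmp1, which encodes a matrix protein of osteocytes, was at 40.4, 96.7 and 159 TPM in the fBM-MSCs, 0.80 and 17.2 in the vBM-MSCs and at most 0.20 elsewhere (10.37 ± 1.01, adjusted p = 1.01e-05). Postn had 2 members 96.6 and 100.5 kb from its start and was at 53.2 to 357 TPM in marrow, 31.2 to 68.3 in the A-MSCs and at most 0.69 in the P-MSCs, so its rise (4.80, adjusted p = 4.1e-05) overlapped the A-MSCs. Cdh11, which encodes osteoblast cadherin, had 2 members 686 and 834 kb away and rose by 1.26 ± 0.14 (adjusted p = 3.3e-05), also with overlap. Wisp1, with 1 member, was at 46.2 to 82.9 TPM in marrow and 58.4 to 78.1 elsewhere (0.06, adjusted p = 0.741). In Alpl, Sp7, Dlx5, Dmp1 and Panx3, vBM-MSC replicate 1 was the lowest marrow library.

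Other lists of marrow and skeletal genes held fewer members. Niche genes had 8 members at 7 genes, 4.91% of their 163 regions, and 10 of 23 tested were higher and 3 lower, or 6 and 3 of the 18 with 1 CPM on both sides, where 23.8% and 23.2% of all such genes were. Cxcl12, which encodes the main chemokine holding stem cells in marrow, was at 178 to 373 TPM in marrow and 197 to 454 elsewhere (−0.21, adjusted p = 0.312). Cd200, which encodes a membrane glycoprotein, was at 6.20 to 61.1 TPM in marrow and at most 0.72 elsewhere (7.03 ± 0.62, adjusted p = 4.68e-06). Foxc1, a regulator of niche stroma, was at 1.36 to 3.61 TPM against 0.09 to 0.77 (3.19 ± 0.40, adjusted p = 6.48e-05). Ebf3 rose with overlap (4.57 ± 1.13, adjusted p = 0.00594), and Csf1 (0.05), Jag1 (−0.53) and Bst1 (2.19, adjusted p = 0.159) did not pass.

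Wnt and BMP genes had 6 members at 6 genes, 3.35% of 179 regions, and 22 of 32 tested were higher and 0 lower, or 10 and 0 of the 18 with 1 CPM on both sides (all tested genes 24.9% and 22.4%, all with 1 CPM on both sides 23.8% and 23.2%). Sfrp4, which encodes a secreted Wnt inhibitor, was at 3.84 to 82.7 TPM in marrow and at most 0.79 elsewhere (7.57 ± 0.93, adjusted p = 5.34e-05). Dkk3 was at 76.0 to 187 TPM and 5.03 to 19.1 (3.63 ± 0.22, adjusted p = 3.8e-07). Wnt5a (0.57) and Bmp3 (8.61, no longer passing without vBM-MSC replicate 2) rose with overlap, and Bmp6 (0.93, adjusted p = 0.136) and Nog (0.57, adjusted p = 0.39) did not pass. Cartilage genes had 4 members at Sox5, Sox6, Col2a1 and Prg4, and 12 of 15 tested were higher and 1 lower, or 3 and 0 of the 4 with 1 CPM on both sides, beside the same background. Col2a1, the main cartilage collagen gene, was at 75.1 TPM in vBM-MSC replicate 2, 0.43 to 4.92 in the other marrow libraries, 4.21 in P-MSC replicate 1 and 0 in the other 5 libraries. Its log2 fold change was 8.06 ± 2.02 (adjusted p = 0.00867), and 6.64 ± 2.14 (adjusted p = 0.0342) without vBM-MSC replicate 2. Without P-MSC replicate 1, which leaves every A-MSC and P-MSC library at 0, the fitted value was 13.2 and depends on the prior count.

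Genes of position along limb and trunk had 8 members at 8 genes, 5.97% of 134 regions, and 9 of 23 tested were higher and 4 lower, or 5 and 3 of the 16 with 1 CPM on both sides (23.8% and 23.2% of all such genes). The limb mesenchyme gene Prrx2 was at 86.1 to 230 TPM in marrow and 17.9 to 76.9 elsewhere (1.93 ± 0.11, adjusted p = 2.91e-07). Its relative Prrx1 (−0.25, adjusted p = 0.108), Tbx18 (0.19), En1 (0.64) and Meis2 (−0.52) did not pass, while Pax9 (3.72, adjusted p = 0.00148) rose with overlap, and Meox1 was not tested. The Hox genes themselves had 0 members among 35 fBM-MSC regions. Of the 26 tested, 12 were higher and 9 lower, or 9 and 9 of the 22 with 1 CPM on both sides. Over all tested genes 24.9% were higher and 22.4% lower, a background that also stands beside the next 3 lists. Cholesterol synthesis genes had 0 of 51 regions, with 7 of 24 higher and 4 lower. Matrix turnover genes had 2 of 99, at Mmp16 and Timp3, and both genes rose (2.66 and 1.55), with 12 of 21 of the list higher and 1 lower. Acyl-CoA thioesterase genes had 2 of 31, both at Acot10 (−0.42, adjusted p = 0.433), with 2 of 11 higher and 3 lower.

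Lists of other cell types had few regions, so that counts of 0 or 1 member cannot be told from the 2.77% of all fBM-MSC regions. Endothelial genes and neutrophil and erythroid genes had 0 of 46 and 0 of 10 regions, and 4 of 7 tested endothelial genes were lower and 0 higher. The background for this and the next 3 lists is again 24.9% higher and 22.4% lower, or 23.8% and 23.2% with 1 CPM on both sides. Of the 3 endothelial genes with 1 CPM on both sides, 0 were higher and 0 lower. The macrophage and osteoclast list had 1 member of 34 regions, at Dcstamp, which was listed at 0 in all libraries. In that list 3 of 9 tested were higher and 2 lower, or 1 and 1 of the 4 with 1 CPM on both sides. The epithelial and mesothelial list had 1 of 15, at Lrrn4, with 0 of 9 higher and 6 lower. Only 1 gene of this list had 1 CPM on both sides, and it was lower. Lrrn4 was listed at 0 in all 5 marrow libraries and in the P-MSCs and at 1.02 to 2.82 TPM in the A-MSCs, so its member was open where its RNA was not detected. The adipocyte list had 1 of 20, at Cebpa, a regulator of fat cells that rose without overlap (3.50 ± 0.43, adjusted p = 5.16e-05), with 3 of 6 higher. The MSC surface list had 1 of 38, at Cd34, which rose (3.43 ± 0.47, adjusted p = 0.000114) mainly through fBM-MSC replicates 1 and 2.

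The genes of the factors that bind the words were read as well, and only some followed the words. Runx3 was at 1.43, 3.34 and 7.67 TPM in the fBM-MSCs, 0.04 and 1.48 in the vBM-MSCs and at most 0.10 elsewhere (6.46 ± 1.09, adjusted p = 0.000515), with vBM-MSC replicate 1 among the other libraries. Cbfb, the shared partner, rose by 0.50 ± 0.13 (adjusted p = 0.00754). Runx1, with 2 members in its introns, was at 4 to 5.86 TPM in marrow and 4.05 to 9.22 elsewhere (−0.22, adjusted p = 0.157). Of the NFI genes, Nfix rose (0.36 ± 0.11, adjusted p = 0.0139), though not without vBM-MSC replicate 1 (0.31), and Nfia (−0.06), Nfib (−0.32) and Nfic (−0.11) did not pass.

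AP-1, GATA and TEAD factor genes were read in the same way. Fosl1 (−0.10) and Jun (0.00) did not pass, and Jund (0.91, adjusted p = 0.0015) and Junb (0.44, adjusted p = 0.0477) rose, the latter no longer passing in 6 of the 11 fits that left out 1 library or under another low-count filter (edgeR's filterByExpr). Fos was at 1.44 to 3.04 TPM in the fBM-MSCs and 23.9 and 24.7 in the vBM-MSCs, with the other libraries between, and its mean difference did not pass (0.27, adjusted p = 0.257). Gata2 (−1.55), Gata3 (−1.33), Gata4 (−5.18) and Gata6 (−3.32) were lower in marrow MSCs without overlap between libraries. Tead1, Tead2, Tead3 and Tead4 were lower as well (−0.69, −0.99, −0.64 and −1.37), though Tead3 did not pass in 3 of the 11 fits that left out 1 library.

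Between the marrow sites, genes beside members differed about as often as all genes. Of the 803 linked genes, 54 (6.72%) were higher and 62 (7.72%) lower in fBM-MSCs than in vBM-MSCs, against a background of 5.24% and 7.46%. Where the member itself was over 2-fold stronger in fBM-MSCs, 5 of 60 tested genes were higher and 5 lower in fBM-MSCs, and where it was over 2-fold stronger in vBM-MSCs, 3 of 34 were higher and 3 lower. The stronger site of the peak thus did not mark the site with more RNA in these counts. The counts moved with the libraries, and so did the background. Without vBM-MSC replicate 1 they were 21 (background 1.63%) and 27 (3.17%), without fBM-MSC replicate 2 33 were higher (3.17%), and without vBM-MSC replicate 2 80 were higher (7.54%).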

How the data were processed

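For RNA-seq, the authors aligned paired Smart-seq2 reads to mm10 with RSEM and STAR and deposited, for each library, the expected count of each gene, which is not normalized, and its TPM and FPKM, which RSEM scaled for effective length and library size. FPKM was not used. ATAC-seq reads were trimmed with Trim Galore, aligned with Bowtie (unique hits), freed of duplicates with Picard and of blacklisted regions, and shifted for the Tn5 cut before the authors ran MACS2 on pooled samples, 1 list per tissue. The deposited lists give the fold enrichment at the summit as a ratio to the genome-wide background, so the fold does not allow for local background. They also give the −log10 q of the summit, as computed by the authors' MACS2 run, the summit offset, and a −log10 p that was not used. Versions of these tools are not given in the sources used here.

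After rounding, the expected counts of 12509 genes with at least 1 CPM in at least 2 libraries entered the two-sided quasi-likelihood test of edgeR 4.0.16 (R 4.3.3), with TMM scaling and a Benjamini-Hochberg adjusted p under 0.05. The 11 libraries shared 1 model with a mean per tissue. Its contrasts were the mean of both marrow tissues minus the mean of the other 2, fBM-MSCs minus vBM-MSCs, and the 4 pairs of a marrow and another tissue. A fold against a group without counts used a floor of 3 counts over the group. limma 3.58.1 and, as an alternative test, DESeq2 1.42.0 were loaded beside it.

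Summits were linked to the nearest start of 40913 curated RefSeq transcripts of GRCm38 on chromosomes 1 to 19, whose lengths fit the lists; of 24411 genes in the RNA tables, 23168 had one. Words were searched on both strands within 100 bases of the summit for 18 motifs. Beside those spelled out with the results, these were CEBP (TTGCGCAA, TTGCACAA, TTGCATAA, TTGCGTAA, TTGCGCAT or TTGCACAT), PU.1 (GAGGAAGT), E-boxes (CAGCTG and CATCTG), homeodomain (TAATTA), SOX (ACAATGG or ACAATAG), nuclear receptor (AGGTCA), TCF/LEF (ATCAAAG), STAT (TTCCNGGAA), EBF (CCCNNGGG) and CTCF (CCACNAGG). Python 3.11.15, numpy 2.4.6, pandas 2.3.3, scipy 1.17.1 and matplotlib 3.10.9 were used, and the RNA test was tested on simulated data.

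The members, the 16 gene lists and the motifs were chosen with earlier results of these data known. Genes were named by rule: the 16 tested genes nearest to most members, the 10 promoter genes with the largest called and non-overlapping change, list genes nearest to a member, the motif factors, and the genes of the 12 strongest members. The other promoter genes were named after their values were seen. For 1 listed gene with a member, values are not reported here.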

Additional observations from a re-analysis of the deposited data

Results flagged for a closer look

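Among 144 tested genes named by rule or held as markers, 31 differed between the marrow sites themselves (fBM-MSCs minus vBM-MSCs, edgeR adjusted p under 0.05), 13 higher in fBM-MSCs (9.03%, against 5.24% of all tested genes) and 18 lower (12.5%, against 7.46%). Their marrow mean hides a gap between femur and vertebra. No group had the 4 libraries needed to look for a single outlying library. With 2 vBM-MSC libraries these differences rest on little replication, and 20 of the 31 no longer passed without vBM-MSC replicate 1.

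Of the 13 genes higher in fBM-MSCs, 5 were known from bone. They did not come from 1 gene list and were grouped after their values were seen, with no test of the group. The log2 difference was 1.31 ± 0.35 SE for Runx2 (adjusted p = 0.0324), 3.29 ± 0.87 for Dlx3 (0.0302), 3.56 ± 0.95 for Dmp1 (0.0315), 4.18 ± 1.12 for Panx3 (0.0323) and 4.87 ± 1.24 for Bmp3 (0.032). In each of these 5 genes every fBM-MSC library was above both vBM-MSC libraries, but each call was lost in 3 to 5 of the 16 other settings, and with DESeq2 for Dmp1, Panx3 and Bmp3. Other bone genes did not pass between the sites, among them Alpl (adjusted p = 0.561), Sp7 (0.0612), Dlx5 (0.111), Clec11a (0.171) and Postn (0.16).

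Atp6v0d2 (5.43 ± 0.71, adjusted p = 0.00355), Cd34 (2.91 ± 0.72, 0.0226), Tmem179 (1.51 ± 0.45, 0.0474) and Tcf12, an E-box factor gene (0.51 ± 0.13, 0.0315), were also higher in fBM-MSCs, as was the macrophage marker Cd68 (3.06 ± 0.50, 0.00305). Cd34 was at 79.2, 72.7 and 10.2 TPM in the fBM-MSCs and 7.33 and 7.46 in the vBM-MSCs.

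Another 6 genes with a member were higher in vBM-MSCs. Bst1, which encodes a stromal cell surface enzyme, was at 20.7 and 3.85 TPM in the vBM-MSCs and at most 0.13 in the fBM-MSCs (−8.03 ± 1.65, adjusted p = 0.0101), although it did not pass in the marrow mean. Jag1 (−1.53 ± 0.30, 0.00839), Mmp16 (−1.35 ± 0.24, 0.00506), Prrx2 (−1.12 ± 0.17, 0.00171), Efnb2 (−0.80 ± 0.17, 0.0107) and 2010111I01Rik (−0.78 ± 0.21, 0.0336) followed.

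Factor genes and 1 MSC surface gene without a member went both ways. Tcf4 (1.30, adjusted p = 0.00405), Mef2c (2.62, 0.0392) and Nfic (0.67, 0.0169) were higher in fBM-MSCs. The AP-1 genes Fos (−3.46, 5.31e-05), Fosb (−2.58, 0.00536) and Fosl1 (−0.60, 0.0284), the TEAD genes Tead1 (−0.75, 0.0388), Tead2 (−0.74, 0.0293) and Tead4 (−1.43, 0.0429), and Nfix (−0.59, 0.0302), Gata2 (−1.29, 0.0214), Ets1 (−0.86, 0.0186), Cebpb (−0.83, 0.0488), Nr2f2 (−1.25, 0.0339) and Ly6a (−0.95, 0.03) were higher in vBM-MSCs. Of the 16 other settings, the call was lost in 11 for Cebpb, 10 for Tead1 and Tmem179, 9 for Mef2c and Tead4, 6 for Nr2f2 and 2010111I01Rik, 5 for Fosl1 and Tcf12, 4 for Nfix and Tead2, 3 for Ly6a and Cd34, 2 for Ets1 and 1 for Gata2 and Nfic.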

How the results depend on the processing

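The number of members followed the rule. It was 6648, 237 and 24 at a −log10 q minimum of 2, 15 and 30, and 3486 when only A-MSC and P-MSC lines above 7 excluded a region. It stayed between 1480 and 1575 with a stricter overlap, with a margin of 500 bp or when taken from the vBM-MSC list. Linked genes numbered 290 to 338 higher and 102 to 125 lower in marrow under every fit tried (DESeq2, its size factors, other filters, each library left out), and 311 and 123 with a replicate block. The share higher was 43.4% within 20 kb, 84.2% within 1 kb, 42.7% for members above 15, 42.9% above 30 and 13.4% when all 4 pairs had to pass. The share lower was 5.26% within 1 kb, 12.2% above 15 and 0% above 30, beside 22.4% of all tested genes, and 4.36%, beside 5.94%, over the 4 pairs. Promoters held 1.21% of members within 500 bp and 4.45% within 2.5 kb.

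Between the marrow sites, leaving out a library gave 21 to 80 genes higher and 27 to 75 lower in fBM-MSCs, with the lowest counts without vBM-MSC replicate 1, where the lone vBM-MSC library was assumed to vary like the other tissues. DESeq2 gave 80 and 86, where 8.06% and 9.28% of all tested genes were called. The replicate block gave 51 and 60, where 4.19% and 6.31% were. Whether equal replicate numbers mean the same mouse could not be decided from the libraries. Same-number deviations correlated at −0.03 to 0.12 over 15 pairs, 1 of them over 0.1, and those of the other 30 pairs at −0.12 to 0.11. Deviations from the mean of so few libraries depend on each other, so low correlations do not exclude shared mice. Of the 31 gene differences between the marrow sites, 10 no longer passed under the block (2010111I01Rik, Cebpb, Dlx3, Fosl1, Mef2c, Nfix, Nr2f2, Tead1, Tead4 and Tmem179) and 20 without vBM-MSC replicate 1, and over 494 repeats 108 no longer passed and 0 reversed. For marrow against the other MSCs, 124 tested genes named by rule, 79 of them called, were repeated 1973 times. In 41 repeats a call was lost, in 10 genes (Ets1, Ndnl2, Junb, Fbxo40, Tead3, Sox5, Bmp3, Lef1, Nfix and Tcf4), in 38 repeats 18 genes newly passed, and 0 reversed. The block ended 1 of these calls, Junb. Col2a1 was 14.7 with DESeq2.

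For the words, members minus fBM-MSC regions was 8.87 percentage points for RUNX in windows of 50 bases to each side, 9.32 against regions away from promoters, 14.97 on the vBM-MSC side and 16.1 for members above 15. NFI gave 3.99 in those windows and 4.46 at equal GC content, and posterior HOX 1.66 in them. AP-1 gave −7.98 in them, −18.6 away from promoters, −4.41 on the vBM-MSC side and −21.3 at equal GC content. TEAD turned from 1.79 to −0.78 away from promoters, −0.72 on the vBM-MSC side, −0.71 at equal GC content and −0.48 above 15, and the cause was not tested. The settings above 15 and at equal GC content for the words, the vBM-MSC-only class and the genes with 1 CPM on both sides, lists included, were chosen after seeing the data. Weak peaks limit the set, since the absence of a line in 2 pooled lists is the absence of a call.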
